A study of Mus musculus with 9 samples.

Results

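Fibronectin (*Fn1*), the matricellular proteins periostin (*Postn*), SPARC (*Sparc*), thrombospondin-1 (*Thbs1*) and tenascin-C (*Tnc*), the fibulins (*Fbln1*, *Fbln2* and *Fbln5*), fibrillin-1 (*Fbn1*) and nidogen-1 (*Nid1*) are secreted proteins of the extracellular matrix, and the 10 genes that encode them were examined in pancreatic islets. A probe set was taken for a gene when the annotation of the array paired it with that gene and no other. Of the 34945 probe sets that were paired with 1 gene, 20 belonged to these genes and covered 9 of the 10, among 18193 genes in all. *Fbn1* was not analysed here, and 1 further probe set was left out because it was paired with both *Thbs1* and *Pald1*.

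Islet RNA of male mice 8 weeks of age was hybridised to Affymetrix Mouse Genome 430 2.0 arrays, 5 for WT and 4 for KO islets. KO mice (βRapKO) carried floxed alleles of *Raptor* (*Rptor*, which encodes an essential component of the mTORC1 kinase complex) and Cre under control of the rat insulin gene promoter, so that the deletion was directed to beta cells, and the other cells of the islet were not its target. WT mice were littermates with the same floxed alleles and no Cre, and a group with Cre and unfloxed *Raptor* was not analysed here. The labels give the strain as C57BL/6, while the methods describe the Cre line as kept on a mixed background of C57BL/6J and a further inbred strain. Each array held RNA pooled from islets of 5 animals of 1 genotype, so the p-values below reflect the spread between pools.

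These proteins have separate places in the matrix. Cells assemble fibronectin into fibrils through integrins, fibulins and fibrillins belong to elastic fibres and microfibrils, nidogens bind laminin and collagen IV in basement membranes, and matricellular proteins bind receptors, growth factors and other matrix proteins without being main building blocks. In the pancreas fibroblasts, stellate cells and the mural and endothelial cells of vessels are known sources of such proteins, and beta cells rest on a basement membrane made by the islet's vessels.

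The stretches of DNA before the transcription start are shown for the members that rose in KO islets and for which the RefSeq table used here held a window. They were picked by that call, and whether these genes share a control was not tested. The table (GRCm38.p6) held 12 windows for 8 of the members, and *Fn1* and *Thbs1* were not among them. Each line gives the 250 bases before a start, 5′ to 3′ on the strand of the gene. *Postn* has 2 starts in the table and both are shown. *Fbln1* has 2 overlapping windows, and that of the downstream start is shown. The windows lie at chr3:54359017-54359266 (plus strand) and chr3:54360857-54361106 (plus strand) for *Postn*, chr11:55420081-55420330 (minus strand) for *Sparc*, chr13:13437352-13437601 (plus strand) for *Nid1* and chr15:85205758-85206007 (plus strand) for *Fbln1*. Capitals mark matches to the TATA box (TATAAA), the AP-1 site (TGANTCA), the GC box (GGGCGG), the CCAAT box (CCAAT) and the TEAD site (CATTCC), searched on both strands.
Postn, upstream start: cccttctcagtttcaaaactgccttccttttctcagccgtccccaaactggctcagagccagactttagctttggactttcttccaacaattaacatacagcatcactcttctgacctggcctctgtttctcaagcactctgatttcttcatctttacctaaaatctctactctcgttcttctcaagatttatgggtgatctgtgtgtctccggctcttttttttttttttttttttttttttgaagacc
Postn, downstream start: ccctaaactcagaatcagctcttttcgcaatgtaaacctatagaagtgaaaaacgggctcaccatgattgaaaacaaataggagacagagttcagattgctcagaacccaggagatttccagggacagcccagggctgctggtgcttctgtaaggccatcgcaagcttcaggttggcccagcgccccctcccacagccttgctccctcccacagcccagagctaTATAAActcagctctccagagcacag
Sparc: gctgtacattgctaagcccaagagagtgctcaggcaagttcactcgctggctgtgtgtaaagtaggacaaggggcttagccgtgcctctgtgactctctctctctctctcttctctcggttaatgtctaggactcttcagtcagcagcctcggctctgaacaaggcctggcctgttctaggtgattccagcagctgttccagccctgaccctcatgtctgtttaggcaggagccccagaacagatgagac
Nid1: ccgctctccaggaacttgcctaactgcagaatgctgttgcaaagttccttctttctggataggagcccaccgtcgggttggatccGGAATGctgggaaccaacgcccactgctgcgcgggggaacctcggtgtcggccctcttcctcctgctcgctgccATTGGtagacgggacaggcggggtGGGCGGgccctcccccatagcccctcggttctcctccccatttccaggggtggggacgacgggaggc
Fbln1: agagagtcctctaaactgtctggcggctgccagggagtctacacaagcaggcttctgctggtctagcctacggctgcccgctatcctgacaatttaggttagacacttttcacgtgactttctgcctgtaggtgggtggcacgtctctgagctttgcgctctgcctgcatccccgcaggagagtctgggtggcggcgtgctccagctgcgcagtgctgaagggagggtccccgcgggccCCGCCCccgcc

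The downstream window of *Postn* held a TATA box whose first base lay 26 bases before the start, whereas its upstream window held none of these 5 motifs, and neither did that of *Sparc*. The window of *Nid1* held a GC box, a CCAAT box (as ATTGG) and a TEAD site (as GGAATG), and that of *Fbln1* held a GC box (as CCGCCC). Among all 32851 windows of this length in the table, 12.4% held a TATA box, 6.75% an AP-1 site, 32.7% a GC box, 33.8% a CCAAT box and 12.6% a TEAD site. Of the 12 windows of these genes, 3 held a TATA box, 0 an AP-1 site, 7 a GC box, 2 a CCAAT box and 1 a TEAD site. The 2 windows of *Tnc* overlap, and the same TATA box and the same GC box were counted in both. The E-box (CANNTG, not capitalised) was in 7 of the 12 and in 66.2% of all windows. None of the capitalised motifs was in more than 2 of the 5 windows printed.

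The values below are log2 signals as deposited, so a difference of 1 is a doubling, and signals of different genes on this array are not compared. Medians of the arrays lay between 6.85 and 7.05, and pairs of arrays correlated at r = 0.879 to 0.903 within WT and 0.888 to 0.910 within KO over the probe sets. *Rptor* fell from 9.47 ± 0.21 (SD, n = 5) in WT to 8.75 ± 0.32 (n = 4) in KO islets, which was 1.64-fold lower (adjusted p = 0.0410, limma), and where its probe set lies against the deleted exon is not given in the sources used here. KO was compared with WT by limma on 1 probe set per gene, the one with the highest mean over the 9 arrays, after a share of 0.25 of the genes, those with the lowest means, had been left out. A gene is said to rise or fall when its p, adjusted by Benjamini-Hochberg over all 13644 genes tested, was under 0.05.

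Of the 10 genes, 8 were tested, and 5 of these, *Fn1*, *Postn*, *Sparc*, *Fbln1* and *Nid1*, rose in KO islets by 1.68-fold to 3.21-fold. None fell. That is 62.5% of the 8, where 3.67% of all genes tested rose and 2.63% fell. In the same 5 genes every KO array lay above every WT array, which held for 7.43% of all genes tested. All 8 differences were positive, against 56.2% over all genes tested, and their median was 0.98 against 0.04 for all genes tested. These genes, and the lists and markers below, were chosen with earlier results of these data known. The counts therefore describe the genes and are not a test of the set. For *Fbln1* these counts lean to higher values by selection, because the KO arrays decided which of its probe sets was used. In WT islets its probe set 1439688_at was brighter (6.93 against 6.56 for 1422540_at, the one used), and the difference of 1439688_at was -0.69. *Tnc* lay just under the intensity limit for genes (5.51), while the 8 that were tested lay above it in WT islets alone, the lowest being *Fbln2* at 6.39. In RNA from whole islets, more or fewer cells of a type and more or less RNA per cell cannot be told apart. The 5 calls rest on few arrays: leaving out 1 array at a time left 2 to 6 of the 8 genes called, 2 without KO replicate 1 and 3 without KO replicate 4.

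**Figure D1:**
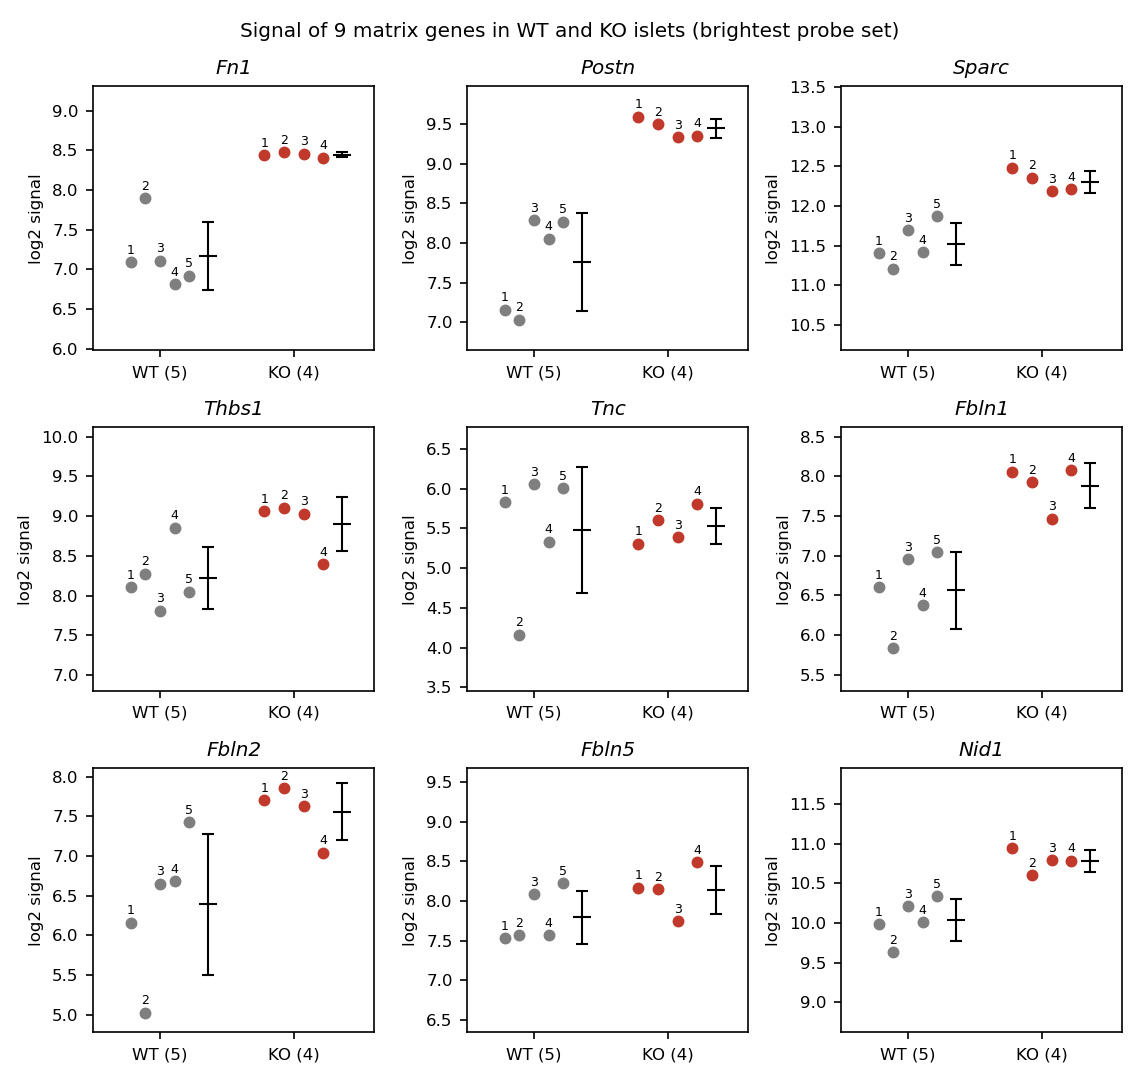
Log2 signal of the brightest probe set (highest mean over the 9 arrays) of each of 9 matrix genes on every array, 5 WT (grey) and 4 KO (red), with the replicate number above each point and the mean ± SD beside each group. Every panel spans the same number of log2 units, and all KO points lie above all WT points for *Fn1*, *Postn*, *Sparc*, *Fbln1* and *Nid1*.

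Fibronectin was measured by a bright and a dim probe set. The signal of *Fn1* (1426642_at) in WT replicates 1 to 5 was 7.09, 7.90, 7.11, 6.82 and 6.92, and in KO replicates 1 to 4 it was 8.44, 8.47, 8.46 and 8.40. All KO arrays were above the highest WT array, which was WT replicate 2, and the KO arrays were almost alike. Means were 7.17 ± 0.43 and 8.44 ± 0.029, a difference of 1.28 ± 0.20 (SE) or 2.42-fold (95% interval 0.82 to 1.73 on the log2 scale, adjusted p = 0.00868). The WT SD was more than 10 times the KO SD, which was the case for 0.410% of all genes tested. Without WT replicate 2 the difference was 1.46. The dim probe set, 1437218_at, had means of 3.56 ± 1.19 in WT and 2.83 ± 1.88 in KO islets, with overlapping groups, and was too dim to be tested. When the probe sets of a gene were averaged, the call was lost (difference 0.28, adjusted p = 0.842).

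Periostin, which binds collagen and integrins and is known from remodelling connective tissue, showed the widest difference of the 8 genes tested. The signal of *Postn* (1423606_at, its single probe set) was 7.16, 7.03, 8.29, 8.05 and 8.27 in WT and 9.59, 9.49, 9.34 and 9.35 in KO replicates. WT replicates 1 and 2 lay low and the other three close together, and the lowest KO array was above them all. Means were 7.76 ± 0.61 and 9.44 ± 0.12, a difference of 1.68 ± 0.29 or 3.21-fold (95% interval 1.04 to 2.33, adjusted p = 0.0116). The call held without any 1 of the 9 arrays.

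*Sparc* encodes a collagen-binding matricellular protein and was covered by 3 probe sets, of which the 2 brighter ones gave differences of like size. On 1416589_at the signal was 11.41, 11.21, 11.69, 11.42 and 11.87 in WT and 12.48, 12.35, 12.18 and 12.21 in KO replicates. The groups did not overlap, and the means of 11.52 ± 0.26 and 12.31 ± 0.14 differed by 0.79 ± 0.14 or 1.73-fold (adjusted p = 0.0159). On 1448392_at the signal was 10.83, 10.42, 11.30, 10.63 and 11.10 in WT and 11.67, 11.58, 11.51 and 11.66 in KO replicates, again without overlap, and the difference of 0.75 ± 0.18 did not pass among probe sets (adjusted p = 0.0740). The third, 1458204_at, pointed the other way, with 6.48, 6.57, 6.81, 7.08 and 5.71 in WT and 6.03, 5.65, 6.31 and 6.84 in KO replicates, and its groups overlapped (difference -0.32 ± 0.31, adjusted p = 0.686). The gene's call was lost without KO replicate 1 (difference 0.73, adjusted p = 0.0562) and when the 3 probe sets were averaged (0.40, adjusted p = 0.170).

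*Thbs1* and *Tnc* encode matricellular proteins that act on cell adhesion, and neither passed the test. Thrombospondin-1 also binds CD36 and CD47 and can activate latent TGF-β. The signal of *Thbs1* (1460302_at) was 8.11, 8.28, 7.81, 8.86 and 8.05 in WT and 9.07, 9.11, 9.03 and 8.40 in KO replicates. The groups overlapped through WT replicate 4, which was high, and KO replicate 4, which was low. The difference was 0.68 ± 0.23 (95% interval 0.17 to 1.20, adjusted p = 0.116), and without WT replicate 4 it was 0.84 and passed the test (adjusted p = 0.0437). A dimmer probe set of *Thbs1*, 1450377_at, gave 7.03 ± 0.38 in WT and 7.16 ± 0.80 in KO islets. Its KO replicate 4 was the lowest of the 9 arrays at 6.00, as KO replicate 4 was the lowest KO array on the brighter probe set.

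The signal of *Tnc* (1416342_at) was 5.83, 4.16, 6.06, 5.33 and 6.00 in WT and 5.31, 5.60, 5.39 and 5.81 in KO replicates. WT replicate 2 was far below the rest and the KO arrays lay within the WT range. Tested among probe sets, the difference was 0.05 ± 0.38 (95% interval -0.80 to 0.90, adjusted p = 0.970), an interval that includes a 1.5-fold change in either direction. Without WT replicate 2 the difference was -0.28, and without KO replicate 4 it was -0.045. The other probe set of *Tnc*, 1456344_at, was near the bottom of the scale, with means of 1.48 ± 1.98 and 0.90 ± 1.30.

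The fibulins, which join elastic fibres, basement membranes and other matrix proteins, gave 1 call among 3 genes, and whether the 3 differ from one another was not tested. *Fbln1* (1422540_at) gave 6.60, 5.84, 6.95, 6.37 and 7.05 in WT and 8.06, 7.93, 7.47 and 8.07 in KO replicates. The groups did not overlap, WT replicate 2 being the lowest and KO replicate 3 the lowest of its group. Means were 6.56 ± 0.49 and 7.88 ± 0.28, a difference of 1.32 ± 0.25 or 2.50-fold (95% interval 0.75 to 1.89, adjusted p = 0.0197). The call was lost without KO replicate 1, 2 or 4 (adjusted p = 0.0655, 0.0553 and 0.0579) and when its 3 probe sets were averaged (difference 0.66, adjusted p = 0.149).

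The other two probe sets of *Fbln1* split. On 1451119_a_at, whose suffix marks probes shared by transcripts of 1 gene, the signal was 5.54, 6.59, 6.18, 5.00 and 7.04 in WT and 7.66, 7.94, 7.51 and 6.58 in KO replicates, so that only KO replicate 4 fell within the WT range. On 1439688_at it was 6.20, 7.10, 7.40, 7.01 and 6.93 in WT and 6.47, 5.73, 6.57 and 6.21 in KO replicates, so that the KO arrays were on the low side and overlapped WT replicate 1. The difference of 1439688_at was -0.69 ± 0.26 (95% interval -1.28 to -0.09, adjusted p = 0.231 among probe sets). In WT islets alone 1439688_at was brighter than 1422540_at (6.93 against 6.56), so that the KO arrays decided which of them stood for the gene. Within each array, 1422540_at minus 1439688_at ran from -1.26 to 0.40 in WT and from 0.90 to 2.20 in KO islets, without overlap, so that this signed difference was higher in every KO array than in any WT array, which was not tested. Which transcripts each probe set reads is not given in the sources used here.

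*Fbln2* (1423407_a_at) gave 6.16, 5.03, 6.65, 6.69 and 7.42 in WT and 7.70, 7.86, 7.63 and 7.04 in KO replicates. WT arrays were spread widely from replicate 2 to replicate 5, and KO replicate 4 fell below WT replicate 5. The difference was 1.17 ± 0.42 or 2.25-fold (95% interval 0.21 to 2.13) and did not pass the test (adjusted p = 0.146). *Fbln5* encodes a fibulin needed for the assembly of elastic fibres. Its probe set 1416164_at gave 7.53, 7.57, 8.09, 7.57 and 8.22 in WT and 8.17, 8.15, 7.75 and 8.49 in KO replicates, and the groups overlapped. The difference was 0.34 ± 0.20 (95% interval -0.11 to 0.79, adjusted p = 0.365).

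*Nid1*, whose product links the laminin and collagen IV networks, rose on its brightest probe set. The signal on 1416808_at was 9.98, 9.64, 10.22, 10.01 and 10.34 in WT and 10.94, 10.61, 10.80 and 10.78 in KO replicates, without overlap. Means were 10.04 ± 0.27 and 10.78 ± 0.14, a difference of 0.75 ± 0.15 or 1.68-fold (95% interval 0.41 to 1.08, adjusted p = 0.0218). A second probe set, 1448469_at, gave a difference of similar size with overlapping groups, at 7.97, 6.51, 7.55, 7.65 and 6.73 in WT and 7.82, 8.70, 8.11 and 7.61 in KO replicates. The call was lost without WT replicate 1 or KO replicate 1, 3 or 4 (adjusted p between 0.0539 and 0.0724), with arrays centred on their median (0.70, adjusted p = 0.0706) and with probe sets averaged (0.65, adjusted p = 0.394).

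Tested as single probe sets, among 26208, the brightest probe set of each of the same 5 genes passed (adjusted p = 0.0191 for *Fn1*, 0.0243 for *Postn*, 0.0336 for *Sparc*, 0.0378 for *Fbln1* and 0.0445 for *Nid1*), where 1.25% of all probe sets tested rose and 1.05% fell. These calls depended on single arrays, since 0 of the 5 passed without WT replicate 1 or without any 1 of the KO replicates, 3 without WT replicate 2, 2 without WT replicate 4, 4 without WT replicate 3 (*Nid1* had adjusted p = 0.0592) and 5 without WT replicate 5. Of the 20 probe sets, 15 were bright enough to be tested, 13 with positive and 2 with negative differences. The 5 that were too dim had 2 positive and 3 negative differences and means of at most 4.46. Besides those of *Fn1* and *Tnc* they were 1438375_at of *Fbln2* (2.80 ± 1.26 in WT and 1.93 ± 1.53 in KO islets), 1446377_at of *Fbln5* (4.01 ± 1.15 and 4.94 ± 1.11) and 1441519_at of *Nid1* (4.28 ± 1.76 and 4.70 ± 1.02), all with overlapping groups. Among the 4 members with at least 2 probe sets tested, *Fbln1* and *Sparc* held probe sets of opposite sign, and 48.8% of the 6767 such genes on the array did so as well. At a fold change over 1.5 and an unadjusted p under 0.05, 7 of the 8 genes tested counted as higher in KO islets, all but *Fbln5*, against 6.38% of all genes tested.

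**Figure D2:**
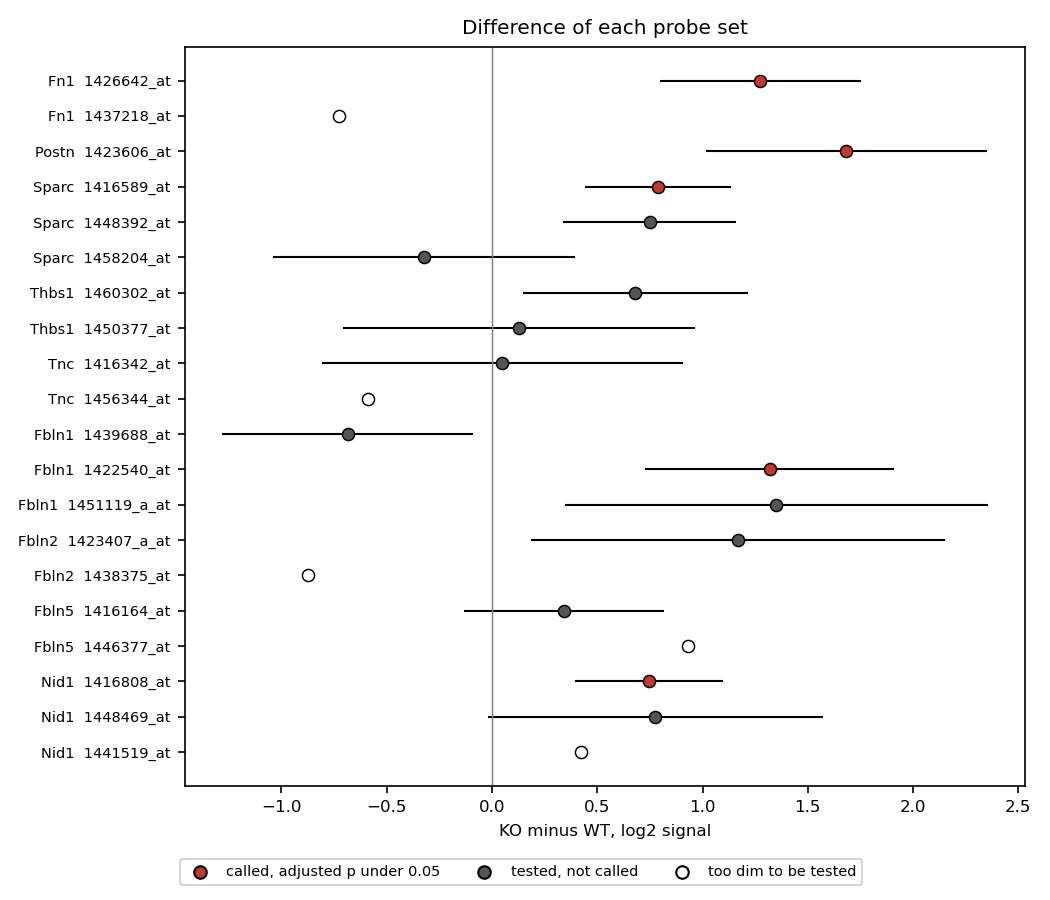
Difference KO minus WT (log2 signal) of all 20 probe sets of the 9 genes, with 95% intervals from limma for the 15 that were tested. Red points passed at an adjusted p under 0.05, grey points were tested and did not pass, and open points were too dim to be tested, so that they carry no interval. The probe sets of *Fbln1* lie on both sides of 0.

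The spread within groups had a shared part. Each of the 8 genes tested had a smaller SD in KO than in WT islets, as had 59.6% of all genes tested. WT replicate 2 was the lowest WT array for 5 of the 8 and WT replicate 5 the highest for 5 of the 8, while *Fn1* was highest in WT replicate 2. The mean over the 8 genes was 8.01, 7.81, 8.35, 8.22 and 8.52 in WT and 9.30, 9.25, 9.08 and 9.09 in KO replicates. Deviations from the group means over the 9 arrays, which share pools and scaling, correlated with the mean of the other members at r = 0.94 for *Sparc* and 0.88 for *Postn*, but at -0.79 for *Fn1* and -0.26 for *Thbs1*. Without WT replicate 2 the value for *Fn1* was -0.44.

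Markers of fibroblasts, stellate cells and pericytes were higher in the same arrays. Of 16 markers, all tested and none a member, 7 rose and 0 fell, where 3.67% of all genes tested rose and 2.63% fell. Among those that rose were the collagen-binding proteoglycan genes *Dcn* and *Lum* (differences 2.04 and 1.54), *Col3a1* (1.77) and *Pdgfrb* (0.88). The mean log2 signal of the 16 ran from 8.27 to 9.19 in WT and from 9.44 to 9.97 in KO islets, without overlap. It was lowest in WT replicate 2 and highest among WT arrays in WT replicate 5. The brightest, the pericyte gene *Rgs5*, was 12.64 ± 0.19 in WT and 12.96 ± 0.30 in KO islets and did not pass (adjusted p = 0.279). Of the other markers of pericytes and contractile cells, *Pdgfrb* and *Des* (0.72) rose. *Acta2* (0.34), *Tagln* (0.54), *Notch3* (0.51) and *Cspg4* (-0.19) did not pass. Of 12 endothelial markers 0 passed the test (mean 9.52 to 9.75 in WT and 9.84 to 10.16 in KO islets, without overlap), and the brightest, *Plvap*, differed by 0.15 ± 0.11 (adjusted p = 0.484). In a list of 12 a count of 0 is near the shares over all genes tested.

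Other cell types were examined in the same way, beside the same shares over all genes tested (3.67% rose and 2.63% fell). The mean of 6 ductal markers ran from 6.91 to 7.49 in WT and from 8.02 to 8.29 in KO islets, and that of 5 platelet and megakaryocyte markers from 6.29 to 6.78 and from 7.08 to 7.26, both without overlap and with 0 of 4 tested markers called in each. The brightest of these, *Epcam* and *Gp1bb*, differed by 0.28 (adjusted p = 0.216) and 0.44 (adjusted p = 0.222). The ductal mean rests largely on dim probe sets. *Krt19* and *Sox9* had WT means under the intensity limit (4.81 and 5.33) and entered the test through the KO arrays alone. *Cftr* and *Muc1* were too dim to be tested, and the brighter *Krt7* differed by 0.11 (adjusted p = 0.528). Means overlapped between groups for macrophages (9 markers, 8.33 to 8.59 and 8.39 to 8.96, 1 called, *C1qa* at 0.45), for Schwann and glial cells (5 markers, 5.49 to 6.61 and 6.37 to 6.81, 1 called, *Cdh19* at 1.26) and for mesothelial cells (5 markers, 5.50 to 6.44 and 5.44 to 6.17). *Msln*, the brightest mesothelial marker, fell by 1.72 and *Gpm6a* rose by 0.84, while *Upk3b*, *Wt1* and *Lrrn4* were too dim to be tested. Acinar markers varied most between arrays of a group (7 markers, 9.49 to 13.90 and 8.72 to 13.97, *Cela3b* -0.68 with adjusted p = 0.735), and 0 of 7 were called. Early response genes, which handling of tissue is known to induce, overlapped (10 genes, 9.41 to 10.79 and 9.03 to 10.51, *Egr1* -0.45 with adjusted p = 0.592). Beta cell markers ran from 13.77 to 13.99 in WT and from 13.18 to 13.38 in KO islets, with 4 of 7 called lower, 0 of 7 differences positive and *Iapp*, the brightest, at -0.12 (adjusted p = 0.463). The 4 called were *Slc2a2* (-1.33), *Nkx6-1* (-0.95), *Ucn3* (-0.85) and *Pdx1* (-0.62), while *Ins2* differed by -0.05. At this age the paper reported lower beta cell mass, smaller beta cells and fewer insulin-positive cells per islet in KO mice. It also reported weaker staining for the products of *Slc2a2* and *Ucn3* in mutant beta cells. The share of beta cells and the signal per beta cell therefore cannot be told apart in this mean. No marker of any list stood at a signal of 0 on all arrays. The part that these cell types have in the differences of the matrix genes was not tested.

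**Figure D3:**
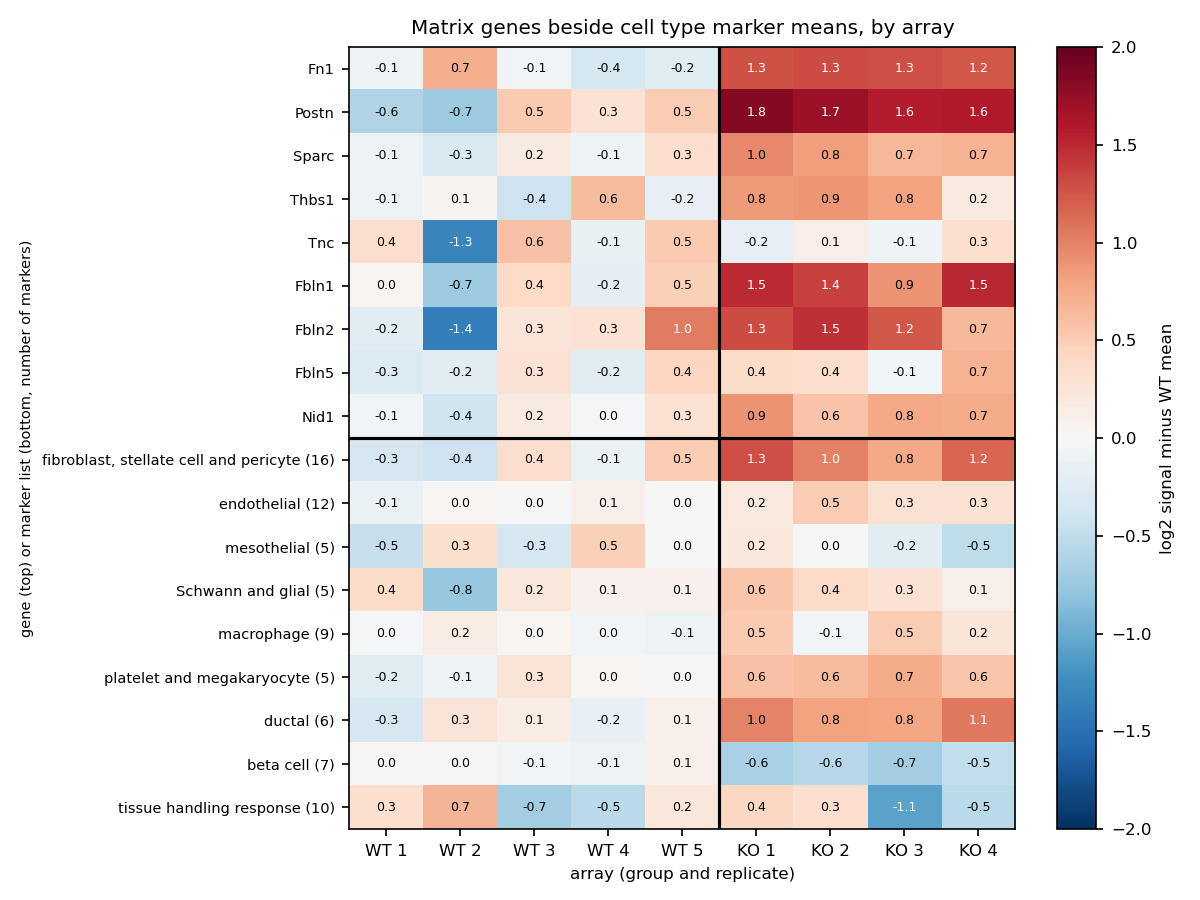
Log2 signal of each array minus the WT mean, for the 9 matrix genes (upper rows) and for the mean of the markers of each cell type (lower rows, number of markers in brackets), with WT arrays on the left and KO arrays on the right. Acinar markers are not drawn because their range would exceed the colour scale. In the fibroblast, stellate cell and pericyte row, the endothelial row, the ductal row and the platelet row all KO arrays lie above all WT arrays, as they do for *Fn1*, *Postn*, *Sparc*, *Fbln1* and *Nid1*. The ductal row rests largely on markers whose WT means were under the intensity limit.

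Further genes of the same families were counted, beside the 3.67% of all genes tested that rose and the 2.63% that fell. Of 17 other matricellular genes tested, 7 rose and 0 fell, with a median difference of 0.63. In 1 of the 17, *Smoc2* (5.13 ± 1.52 in WT and 6.82 ± 0.44 in KO islets, not called), the WT mean was under the intensity limit of 5.51. It entered the test through the KO arrays alone, so the median leans to higher values by selection. All 7 that rose had WT means over the limit. The 3 with the lowest p among those called included *Fstl1*, which encodes a secreted relative of SPARC (8.50 ± 0.32 in WT and 9.66 ± 0.19 in KO islets, 2.24-fold, adjusted p = 0.00674). *Ccn2*, or connective tissue growth factor, rose from 8.997 ± 0.28 to 10.13 ± 0.07 (2.20-fold, adjusted p = 0.00366). *Ccn3* rose from 6.82 ± 0.21 to 7.84 ± 0.36 (2.03-fold, adjusted p = 0.0143) on a probe set of a kind that can cross-hybridise with other transcripts (suffix _x_at).

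Of 17 other elastic fibre and microfibril genes tested, 5 rose and 1 fell, with a median of 0.70. Elastin (*Eln*) rose from 6.82 ± 0.47 to 8.07 ± 0.39 (2.37-fold, adjusted p = 0.0302) and had means above the intensity limit of 5.51 in both groups. In 3 of the 17, *Hmcn1*, *Fbn2* and *Efemp1*, the WT mean was under that limit, so that they entered the test through the KO arrays alone. The call of *Hmcn1* (hemicentin-1, 5.22 ± 0.46 in WT and 6.42 ± 0.29 in KO islets, adjusted p = 0.0255) and the median therefore lean to higher values by selection, and 4 of the 5 that rose remain without it. The fall was that of *Ltbp2*, a latent TGF-β binding protein gene of the fibrillin superfamily. Its signal was 7.79, 7.78, 8.20, 7.88 and 7.51 in WT and 6.23, 6.11, 6.23 and 6.62 in KO replicates, which was 2.90-fold lower (difference -1.53 ± 0.15, adjusted p = 0.00118). None of the 8 matrix genes tested above had a negative difference on the probe set used for it. For *Fbln1* the KO arrays decided that choice. In WT islets its probe set 1439688_at was brighter than the one used (6.93 against 6.56). The difference of 1439688_at was -0.69, which did not pass among probe sets.

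Of 13 other basement membrane genes 0 passed the test, where 3.67% of all genes tested rose and 2.63% fell. In a list of 13 a count of 0 is near these shares and is no result about the list. Of the 13 differences 11 were positive (median 0.33), against 56.2% of all genes tested (median 0.04). The lowest p was that of agrin (*Agrn*, 0.75 ± 0.21, adjusted p = 0.0672). Of 18 receptor genes for these proteins 1 rose and 1 fell (median 0.34), which is also near the shares over all genes tested. *Tgm2*, transglutaminase 2, which crosslinks fibronectin and also binds it at the cell surface, rose from 8.05 ± 0.57 to 9.49 ± 0.46 (2.72-fold, adjusted p = 0.0332, suffix _x_at). *Itgav*, the integrin αv subunit that pairs into receptors for fibronectin and periostin, fell from 12.92 ± 0.09 to 12.39 ± 0.13 (difference -0.54 ± 0.09, adjusted p = 0.0122). Whether these lists differ from one another was not tested.

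**Figure D4:**
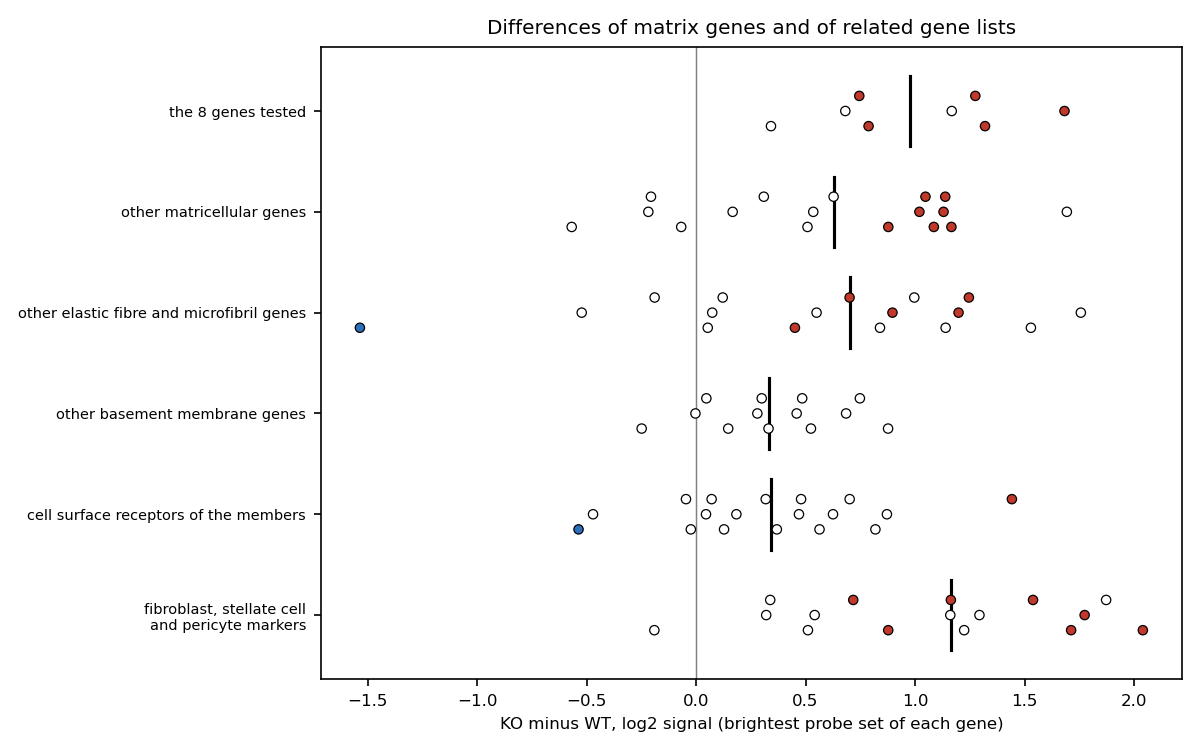
Difference KO minus WT (log2 signal) of each gene tested, by list, with the median of the list as a black bar. Red points rose, blue points fell and open points did not pass at an adjusted p under 0.05. *Ltbp2* is the point farthest to the left, at -1.53, and the medians run from 0.33 for other basement membrane genes to 0.98 for the 8 genes tested and 1.16 for fibroblast, stellate cell and pericyte markers.

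Genes of like pattern were sought among all genes outside these lists by Pearson's r with the mean of the 8 genes over the 9 arrays, as a description. The 5 highest were *Pappa2* (r = 0.987), *Nudcd1* (0.980), *Dapl1* (0.975), *Tubb5* (0.973) and *Col4a5* (0.973). All 5 passed the test as higher in KO islets, which follows from the search, since the mean they were ranked by itself separates KO from WT arrays. *Pappa2*, a secreted protease of insulin-like growth factor binding proteins, rose from 12.24 to 13.28 and *Col4a5*, a collagen IV chain, from 7.38 to 8.36. By deviations from the group means, which leave out the difference between genotypes, the 5 highest were *Gas6* (0.958), *Mars1* (0.949), *4930481A15Rik* (0.944), *Cluap1* (0.944) and *Sgip1* (0.939). None of these 5 passed the test, and they share none with the first 5.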

How the data were processed

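Total RNA of hand-picked islets was amplified and labelled with a 3′ in vitro transcription kit and hybridised to 9 arrays, 5 WT and 4 KO, each a separate pool of islets from 5 animals. The titles of the samples gave the group and the replicate number. The authors deposited 1 log2 signal per probe set and array and analysed the arrays in Genespring, and how probes were summarised and arrays scaled is not given in the sources used here. On the linear scale the trimmed means of the arrays were close, at 497.1 to 497.7. Values were used as deposited, and 0 columns belonged to no sample. The number of arrays limits the precision, and neither scan dates nor detection calls were used here.

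Of 45037 probe sets, the platform annotation paired 34945 with 1 gene, 932 with several and 9160 with none here. Symbols of 18032 genes were matched to RefSeq by gene identifier and 0 differed. Each gene was read from its probe set of highest mean, and a share of 0.25 of the genes, the dimmest (log2 mean under 5.51), was left out, which left 13644. Single probe sets were fitted likewise (limit 5.19, 26208 tested). The comparison of KO with WT was run in R 4.3.3 with lmFit and eBayes of limma 3.58.1 (two-sided, no covariate), with a Benjamini-Hochberg adjusted p under 0.05. Tables and figures were made with Python 3.11.15, pandas 2.3.3 and matplotlib 3.10.9. The fit was tested on simulated data.

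The matrix genes, the gene lists and the markers were chosen with earlier results of these data known. Named were every probe set of the matrix genes, *Rptor*, up to 3 called genes of lowest p in each list or the one of lowest p, the brightest marker of each cell type, and the genes of most similar pattern. Other genes of a list, such as *Dcn*, *Lum*, *Col3a1*, *Pdgfrb*, *Gpm6a* and further pericyte, ductal and beta cell markers, were named after their values had been seen. Alternatives were other intensity limits, median centring, quantile normalization, averaged probe sets, the methods' t-test, an intensity trend, the replicate number as a block, and leaving out each array in turn.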

Additional observations from a re-analysis of the deposited data

Results flagged for a closer look

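In 4 of the 40 groups of arrays formed by the 20 probe sets of these genes, the highest or lowest array stood apart from the others of its group by more than a set share of the range, where chance would set apart about 1 group in 20, or 2 of the 40. For the bright probe set of *Fn1* (1426642_at), WT replicate 2 stood high at 7.90. For the bright probe set of *Thbs1* (1460302_at), KO replicate 4 stood low at 8.40. The others were dim probe sets that were not tested, namely 1456344_at of *Tnc* in KO replicate 4 at 2.83 and 1441519_at of *Nid1* in WT replicate 5 at 1.16.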

How the results depend on the processing

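Of the 5 matrix genes called in the fit of genes, *Postn* kept its call under all alternatives but the replicate block, and *Fn1* lost it with averaged probe sets and the block. Of all genes, 860 were called, 501 higher and 359 lower. This count was 452 with no intensity limit, 474 with arrays centred on their median (214 higher and 260 lower), 322 with probe sets averaged and 372 to 800 when 1 array was left out, but 1080 with the dimmest 0.5 of genes left out and 1260 with an intensity trend (727 higher and 533 lower). Of the matrix genes, 3 were called with the dimmest 0.5 of genes left out (*Fn1* and *Fbln1* then fell under the limit), 1 with probe sets averaged and 2 to 6 when 1 array was left out. Of their probe sets, 5 were called, 2 with no intensity limit, 2 with median centring, 3 with the methods' t-test, 6 with an intensity trend and 0 to 5 when 1 array was left out. Apart from those under the limit, where fewer genes were tested, the cause was not tested. Differences changed sign for 2 probe sets, neither of them called: 1416342_at of *Tnc* (0.05) was -0.28 without WT replicate 2 and -0.045 without KO replicate 4 (-0.28 to 0.19 with each array left out), and 1450377_at of *Thbs1* (0.13) was -0.055 without KO replicate 2 and -0.048 without KO replicate 3 (-0.055 to 0.51). Median centring moved the median difference of all genes from 0.04 to -0.0008.

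The titles do not say that equal replicate numbers pair arrays, and the main fit did not pair them. Deviations of same-numbered arrays correlated at -0.04, 0.09, 0.12 and -0.03, and 2 of the 4 KO arrays correlated best with their own number. These low values cannot decide whether same-numbered arrays were processed together. With the replicate number as a block, 61 genes were called, 33 higher and 28 lower, with 0 of the matrix genes and 0 of their probe sets among them, although the differences of the 5 genes stayed positive (adjusted p between 0.0612 and 0.0820). The small number of pools and the dimness of 5 of the 20 probe sets limit what these arrays can show, and *Fbn1* was not analysed here.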
